A study of Homo sapiens with 8 samples.

Results

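The ribosomal DNA repeats on chromosome 21 were examined for crosslink sites of the H/ACA proteins dyskerin and GAR1. Members were all significant sites between 8.2 and 8.46 Mb of chromosome 21 in GRCh38 (hg38), on either strand and in any library, without regard to their height. There were 1978 such sites among 2006603 in all 8 libraries, and they held 6611 cDNAs at 1136 distinct positions. The libraries came from iCLIP of U2OS, an established human osteosarcoma cell line, in which ultraviolet light fixes proteins to the RNA they touch and a cDNA that ends at the crosslink marks the contacted nucleotide. Nuclear lysates were precipitated with a mouse antibody against dyskerin, with a rabbit antibody against GAR1, or with mouse IgG, and the labels name 1 set of IgG controls for each protein, so that 4 groups of 2 replicates resulted. The GAR1 antibody thus had no control IgG of its own species. The labels name no treatment and no other cell line, and they do not say whether replicates were separate cultures, so that any p-value reflects the spread among these libraries alone, and part of that spread may be technical.

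Each ribosomal DNA unit is transcribed by RNA polymerase I in the nucleolus as a long precursor that holds 18S, 5.8S and 28S rRNA, separated by the internal transcribed spacers ITS1 and ITS2 and flanked by the external transcribed spacers 5′ETS and 3′ETS. The spacers are removed while the precursor matures, whereas the rRNAs remain in the ribosome. Dyskerin is the enzyme that makes pseudouridine within the H/ACA complex, GAR1 is another of its core proteins, and H/ACA small nucleolar RNAs (snoRNAs) guide the complex to uridines of rRNA by base pairing. Contacts with the precursor are therefore part of the known biology of this complex. Because the units are near-identical and occur in many copies, a short read from one copy can align to others, and the place of a site names a sequence more safely than it names a repeat.

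RefSeq placed 3 whole transcribed units on the plus strand of the window, namely RNA45SN2 at chr21:8205988-8219302, RNA45SN3 at chr21:8389035-8402343 and RNA45SN1 at chr21:8433222-8446572, together with a partial repeat made of the pseudogenes RNA18SP5, RNA5-8SP10 and LOC110467529. Aligned end to end, RNA45SN2 and RNA45SN3 differed by 70 single-base edits over 13315 and 13309 nt, an identity of 99.5%. RNA45SN1 differed from them by 79 and 110 edits. The 16 positions that led the window fell at 7 places, which are shown here because they carry the strongest signal. They are the union of the 10 positions of highest mean share of window cDNAs in both dyskerin libraries and the 10 in both GAR1 libraries. Each line gives 30 nt of the plus strand of hg38, 5′ to 3′, and capitals mark the leading crosslinked positions.
RNA45SN2, ITS2 608 to 610 (chr21:8213322-8213351): cccgcgcccctccTCCtcccccgccgcccc
RNA45SN2, 28S 774 to 788 (chr21:8214654-8214683): tccgtccGTCcGTccGtcCtcCtcctcccc
RNA45SN3, 28S 3543 (chr21:8400454-8400483): gtccgcccccggggCcgcggttccgcgcgg
RNA45SN3, 28S 4497 (chr21:8401408-8401437): tgttcacccactaaTagggaacgtgagctg
RNA45SN3, 28S 4517 (chr21:8401428-8401457): acgtgagctgggttTagaccgtcgtgagac
RNA45SN3, 28S 4762 (chr21:8401673-8401702): tagccggtcccccgCctgtccccgccggcg
RNA45SN3, 28S 4836 (chr21:8401747-8401776): gtgccccgccgcgcGccgggaccggggtcc
The number after each segment counts from its 5′ end. The ITS2 stretch was 90.0% G and C, and so were the stretches around 28S 3543 and 28S 4836. The neighbouring stretches around 28S 4497 and 28S 4517 were 50% and 56.7% G and C. All 7 stretches were letter for letter the same in the other unit.

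All 1978 sites lay on the plus strand, the strand of the precursor, and none lay on the minus strand. All but 1 lay inside RNA45SN2 or RNA45SN3. The exception held 5 cDNAs in GAR1 replicate 2, at position 8205986, just upstream of RNA45SN2. RNA45SN1 and the partial repeat held no site in any library. Of the 28 genes that GENCODE 44 annotates in the window, 3 held sites. The long non-coding RNA ENSG00000278996 (chr21:8197620-8227646) spans RNA45SN2 and held 729 sites with 3178 cDNAs, and the long non-coding RNA ENSG00000280441 (chr21:8380643-8454792) spans RNA45SN3 and held 1249 sites with 3433 cDNAs. None of these sites fell in an exon of either gene, so by that annotation every one was intronic. MIR3648-1, a microRNA gene inside the 5′ETS of RNA45SN2 (chr21:8208473-8208652), held 17 of the sites, with 12 and 19 cDNAs in the dyskerin libraries and 0 in the other 6. The genes of 5.8S rRNA in the window, RNA5-8SN1, RNA5-8SN2 and RNA5-8SN3, held 0 sites.

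The window took a small share of every library. For dyskerin it held 512 and 612 sites with 1348 and 2721 cDNAs, or 0.0796% and 0.145% of all cDNAs in significant sites. The GAR1 libraries had 180 and 601 sites with 380 and 2058 cDNAs, or 0.0649% and 0.104%. In the IgG libraries of the dyskerin set, replicate 1 held 13 sites with 15 cDNAs, or 0.0102% (95% Wilson interval 0.00620 to 0.0169%), and replicate 2 held 0 of 8183 cDNAs, which allows a share of up to 0.0367%. The IgG libraries of the GAR1 set held 57 and 3 sites with 80 and 9 cDNAs, or 0.0271% (0.0218 to 0.0337%) and 0.0841% (0.0443 to 0.160%). The highest IgG share, in replicate 2 of the GAR1 set, lay above those of dyskerin replicate 1 and GAR1 replicate 1, so the antibody and IgG libraries overlapped. That library held 10701 cDNAs in all, and its interval reached past the share of every antibody library. Wilson intervals and the limit for a count of 0, which is 3 counts of the total, cover counting error only.

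The mean share was 0.112% ± 0.0463 (SD, n = 2) for dyskerin, 0.0845% ± 0.0277 (n = 2) for GAR1, 0.00512% ± 0.00724 (n = 2) for the IgG libraries of the dyskerin set and 0.0556% ± 0.0403 (n = 2) for those of the GAR1 set. Over the 4 antibody and the 4 IgG libraries the means were 0.0984% and 0.0304%, a difference of 0.0681 percentage points with p = 0.0857 by an exact two-sided permutation test. The smallest p this design allows is 0.0286. The test pools both proteins, since 2 libraries against 2 cannot reach the threshold of 0.05.

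**Figure D1:**
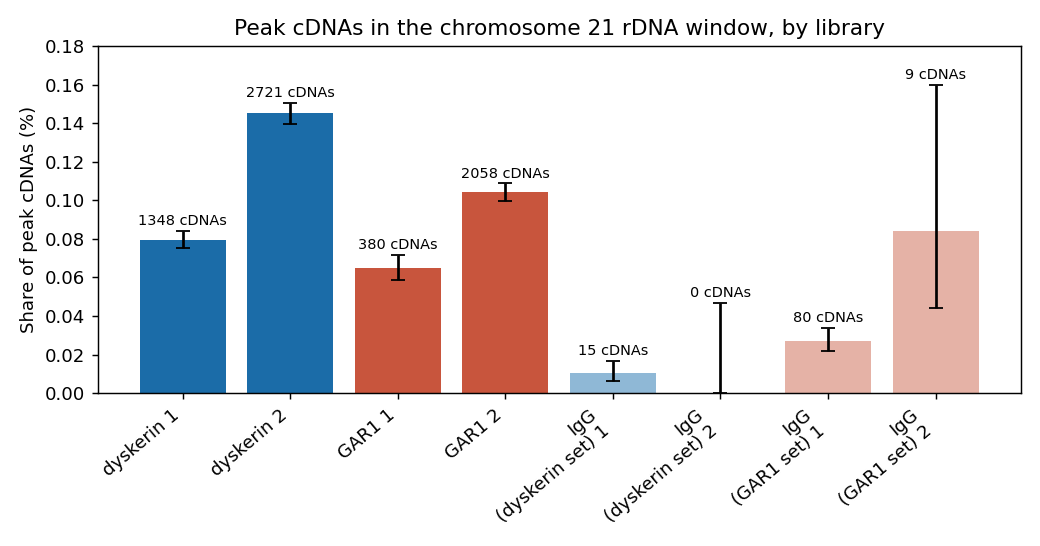
Share of peak cDNAs in the rDNA window for each of the 8 libraries, in percent, with 95% Wilson intervals as error bars and the number of window cDNAs above each bar. The antibody libraries lie between 0.0649 and 0.145%, and the IgG library with 9 cDNAs reaches 0.0841%.

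Beside the rest of the same library, sites in the window held more cDNAs for dyskerin and fewer for GAR1 and for the first IgG library of the GAR1 set. A dyskerin site in the window held 2.63 and 4.45 cDNAs on average, against 1.88 and 2.03 over the whole library. A GAR1 site in the window held 2.11 and 3.42 cDNAs, against 23.6 and 37 over the whole library. In that IgG library the values were 1.40 and 19.6, so the low height in the window was also seen without the GAR1 antibody. By number of sites, the window took 0.0567 and 0.0662% of all dyskerin sites but 0.726 and 1.12% of all GAR1 sites. This is the reverse of the order of the means by cDNAs. The IgG libraries had 0.0164 and 0% in the dyskerin set and 0.378 and 0.109% in the GAR1 set. Both IgG libraries of the GAR1 set thus also lay above both dyskerin libraries. By summed cDNAs, the window ranked 207 and 91 among the 11343 and 10906 genes or regions with counts in the dyskerin libraries, and 180 and 158 among 2265 and 4129 in the GAR1 libraries. Between 49.4 and 58.3% of the window's sites in the antibody libraries consisted of a single cDNA, and the tallest held 162, in dyskerin replicate 2.

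In the edgeR quasi-likelihood fit over all 6528 genes and regions tested, the sense strand of the window was not called in any comparison. Its log2 fold change, with TMM scaling, was 3.94 ± 1.94 (SE) for dyskerin against its IgG libraries, with an adjusted p = 0.215 (edgeR, Benjamini-Hochberg). It was 5.26 ± 2.04 for GAR1 against its IgG libraries, with an adjusted p = 0.256 (edgeR). The background was 0% called in both, that is 0 of 6528, although 1474 and 1044 passed an unadjusted p of 0.05, and DESeq2 called 0 and 86. The median log2 fold changes over everything tested in edgeR were 2.04 and 0. Thus no gene at all passed in these edgeR fits, and the window was no exception. Without GAR1 replicate 1, the log2 fold change of GAR1 against IgG was 6.05, in a fit with a single GAR1 library from which no call is read. The dyskerin libraries enter this comparison through the scaling, the shared spread and the filter on low counts. Leaving out either of them gave 0.64, with 2154 and 2137 genes and regions tested. With a minimum of 50 counts and all libraries kept, the fold change of GAR1 against IgG was 0.41. With libraries scaled to their total of peak cDNAs it was 0.68, against 3.88 for dyskerin. In DESeq2 it was 0.19 ± 1.69 (SE), against 4.18 ± 1.76 for dyskerin.

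Between dyskerin and GAR1 the direction rested on the scaling. The log2 fold change was -3.42 ± 1.86 with TMM scaling (edgeR adjusted p = 0.107), 0.41 with libraries scaled to total peak cDNAs and 2.47 in DESeq2. None of these passed, while 39%, or 2549, of all genes and regions tested were called in the TMM fit. That background itself was fragile, since edgeR called 0 without replicate 2 of the dyskerin IgG set (lowest adjusted p = 0.0518, with 3698 under an unadjusted p of 0.05), 57 without GAR1 replicate 2 and 284 without GAR1 replicate 1. The median over everything tested was 5.56, 6.56 and 8.57 under these settings. Of the 6528 tested, 3658 (56.0%) had no count in either GAR1 library, so this median is mostly set by genes that passed the filter through dyskerin, and nothing is read from the side of it on which the window lay. The GAR1 libraries had TMM factors of 0.296 and 0.0717, against 1.44 for both dyskerin libraries. No fold change carries an absolute amount.

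Along the precursor, sites lay in the spacers 5′ETS, ITS2 and 3′ETS and in 28S rRNA. No library had a site in 18S rRNA, ITS1 or 5.8S rRNA. The 28S segment held most of the signal, with 1009 and 1915 cDNAs for dyskerin, 335 and 1796 for GAR1, 10 and 0 in the dyskerin IgG set and 75 and 6 in the GAR1 IgG set. This was 72.6% ± 3.16 (SD, n = 2) of window cDNAs for dyskerin and 87.7% ± 0.628 (n = 2) for GAR1, and both GAR1 libraries exceeded both dyskerin libraries. The IgG libraries with any signal had 66.7, 93.8 and 66.7% of it in 28S. With 2 libraries a group these shares are a description, and no test was made.

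ITS2, the spacer between 5.8S and 28S, held 172 and 651 cDNAs for dyskerin and 27 and 148 for GAR1. The IgG libraries had 5 and 0 in the dyskerin set and 5 and 3 in the GAR1 set. Its share was 18.3% ± 7.90 (SD, n = 2) for dyskerin and 7.15% ± 0.0609 (n = 2) for GAR1. The dyskerin replicates were far apart, at 12.8 and 23.9%, and both lay above the GAR1 libraries. The IgG libraries with any signal had 33.3% in the dyskerin set, above both dyskerin libraries, and 6.25 and 33.3% in the GAR1 set, from 3 to 5 cDNAs each.

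The 5′ETS, the leading spacer that the U3 snoRNA binds early in processing, held 152 and 145 cDNAs for dyskerin and 15 and 107 for GAR1, but 0 in all 4 IgG libraries. A count of 0 here says that no site passed the call in those libraries, so no fold is given. Its share was 8.30% ± 4.21 (SD, n = 2) for dyskerin and 4.57% ± 0.885 (n = 2) for GAR1. The short 3′ETS held 15 and 10 cDNAs for dyskerin and 3 and 2 for GAR1, and 0 in the IgG libraries.

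Of the 4 segments that passed the filter on low counts, 0 were called by edgeR in any of the 3 comparisons, and 0 by DESeq2. The 3′ETS passed only through the dyskerin libraries, with 15 and 10 cDNAs against 3 and 2 for GAR1, so nothing is read from its values. At an unadjusted p of 0.05, edgeR had 0 of 4 for dyskerin against IgG, 3 of 4 for GAR1 against IgG (28S, 5′ETS and 3′ETS, of which both spacers were at 0 in that IgG set) and 0 of 4 for dyskerin against GAR1. DESeq2 had 1, 0 and 1. Over all 6531 genes and segments, edgeR had 1484, 1031 and 3839 at that level. In this fit, which splits the window, 0%, 0% and 44.9% of the 6531 genes and segments were called. The 28S segment had log2 fold changes of 3.99 ± 2.04 (SE) for dyskerin against IgG, 5.40 ± 2.14 for GAR1 against IgG and -3.68 ± 1.96 for dyskerin against GAR1, the last of which changes sign with the scaling as the whole window does.

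**Figure D2:**
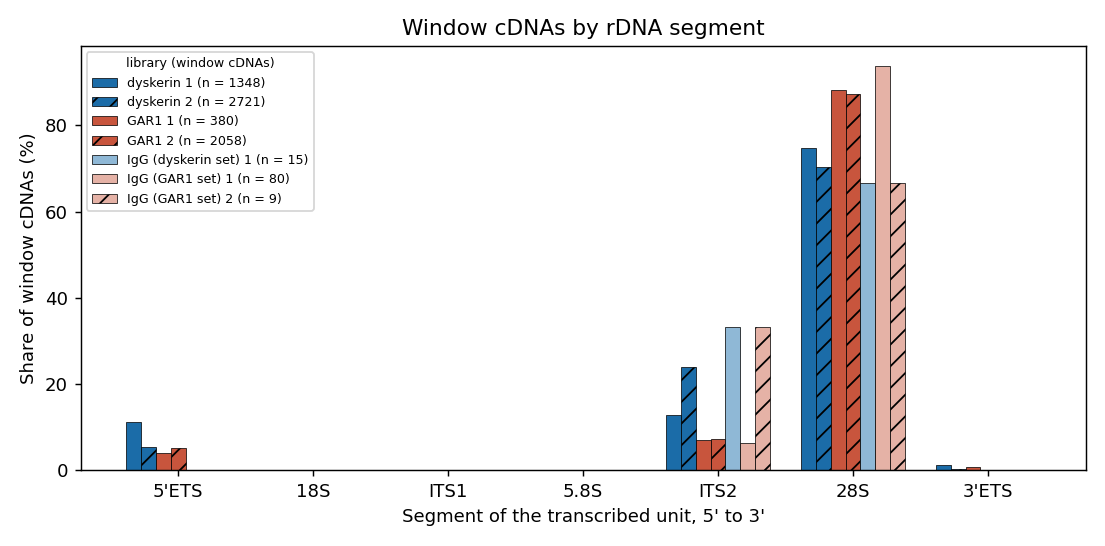
Share of window cDNAs in each segment of the transcribed unit, in percent, with 1 bar for each of the 7 libraries that had any window cDNA; plain bars are replicate 1, hatched bars replicate 2, and the legend gives the window cDNAs behind each. The 28S segment leads in all 7 libraries, ITS2 is higher in both dyskerin than in both GAR1 libraries, and 18S, ITS1 and 5.8S are empty.

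Within 28S rRNA the signal of the antibody libraries was highest at positions 501 to 1000 and 4001 to 5000. In these libraries positions 1 to 500 held at most 2.98% of the 28S cDNAs and positions from 5001 at most 2.61%. Positions 2001 to 2500 held up to 9.45%. Positions 501 to 1000 of 28S held 32.5 and 38.6% of the 28S cDNAs for dyskerin and 29.6 and 12.4% for GAR1. Positions from 3501 to the end, which include the peptidyl transferase region of the large subunit, held 49.8 and 44.5% for dyskerin and 64.5 and 73.4% for GAR1. Both GAR1 libraries lay above both dyskerin libraries in this 3′ part, at 69.0% ± 6.34 (SD, n = 2) against 47.1% ± 3.68 (n = 2). In the first IgG library of the GAR1 set, which had 75 cDNAs in 28S, 77.3% fell in the 3′ part and 4.00% at positions 501 to 1000. In the first IgG library of the dyskerin set, with only 10 cDNAs in 28S, 40% fell at positions 501 to 1000 and 60% in the 3′ part. The second IgG library of the GAR1 set had all of its 6 cDNAs in 28S in the 3′ part. Every IgG library with signal in 28S thus lay above both dyskerin libraries in the 3′ part, from few cDNAs. Positions 1501 to 2000 held 0 cDNAs in all libraries.

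**Figure D3:**
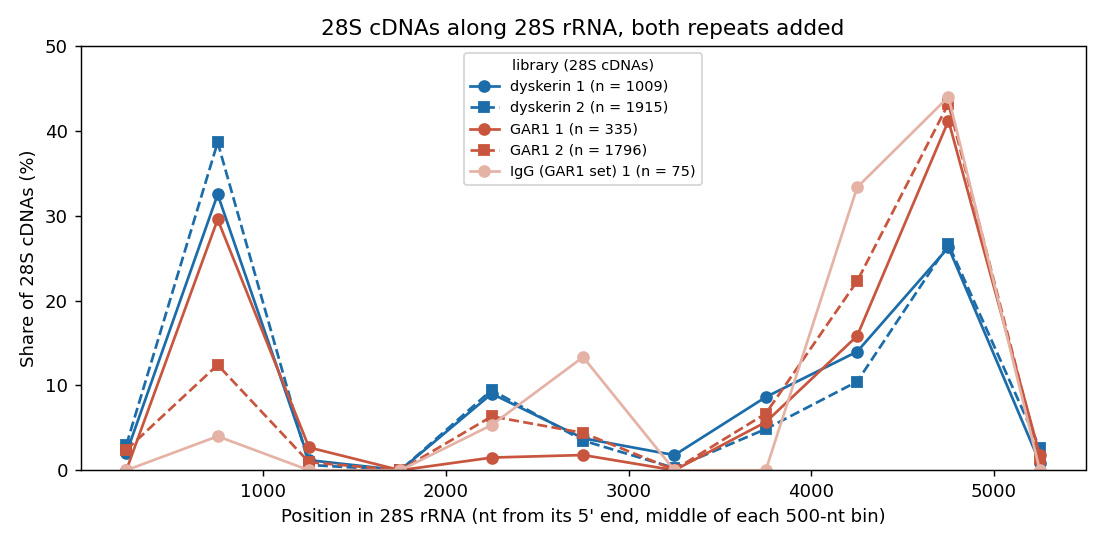
Share of 28S cDNAs in bins of 500 nt along 28S rRNA, in percent, for the antibody libraries and the IgG library with 75 cDNAs in 28S; points are single libraries and the legend gives the 28S cDNAs of each. All 4 antibody libraries have one rise at 501 to 1000 and another in the 3′ part, the first higher in dyskerin and the second higher in GAR1.

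The single position of highest mean share for dyskerin lay in ITS2 of RNA45SN2, within the place at 608 to 610. Within the 30 nt printed above this place had 48 and 447 cDNAs for dyskerin, 13 and 86 for GAR1, 5 and 0 in the dyskerin IgG set and 5 and 0 in the GAR1 IgG set. This was 3.56 and 16.4% of window cDNAs for dyskerin and 3.42 and 4.18% for GAR1. Dyskerin replicate 2 alone stood high, and the other antibody libraries lay between 3.42 and 4.18%. The position itself, ITS2 610, held 12 and 162 cDNAs for dyskerin, 4 and 32 for GAR1 and 0 in the 4 IgG libraries, so its rank rests on that replicate.

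The place at 28S 774 to 788 of RNA45SN2, where the sequence repeats GTCC, held more dyskerin cDNAs than the ITS2 place in both libraries. Its 30 nt had 227 and 595 cDNAs for dyskerin and 93 and 175 for GAR1, against 4 and 0 in the dyskerin IgG set and 3 and 0 in the GAR1 IgG set. It gave 16.8 and 21.9% of window cDNAs for dyskerin, and 24.5 and 8.5% for GAR1, whose replicates were far apart here. The shares of the 2 proteins overlapped. It held 8 of the 16 leading positions, and the 4 that led for both proteins were 3 of these, at 778, 779 and 782, and ITS2 610.

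The remaining places lay in the 3′ part of 28S of RNA45SN3. Around 28S 4497 there were 38 and 64 cDNAs for dyskerin, 34 and 104 for GAR1, and 7 in the first IgG library of the GAR1 set, with 0 in the other IgG libraries. This was 2.82 and 2.35% of window cDNAs for dyskerin, 8.95 and 5.05% for GAR1 and 8.75% for that IgG library, so both GAR1 libraries were above both dyskerin libraries and the IgG library was within the range of GAR1. The stretch around 28S 4517 overlaps it and gave 1.56 and 1.80% for dyskerin and 5.00 and 4.47% for GAR1. The first IgG library of the GAR1 set had 3.75% there, from 3 cDNAs. Around 28S 4836 there were 9 and 42 cDNAs for dyskerin, 13 and 128 for GAR1 and 6 in the first IgG library of the GAR1 set. This was 0.668 and 1.54% of window cDNAs for dyskerin and 3.42 and 6.22% for GAR1. That IgG library had 7.50%, above both GAR1 libraries. The leading position there, a G, held 74 cDNAs in GAR1 replicate 2 and 7 in replicate 1. By contrast, the stretch around 28S 3543, the only one of the 3′ part that led for dyskerin, held 28 and 44 cDNAs for dyskerin, 3 and 20 for GAR1 and 0 in the IgG libraries. Around 28S 4762 there were 31 and 35 cDNAs for dyskerin and 18 and 47 for GAR1, again with 0 in the IgG libraries.

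**Figure D4:**
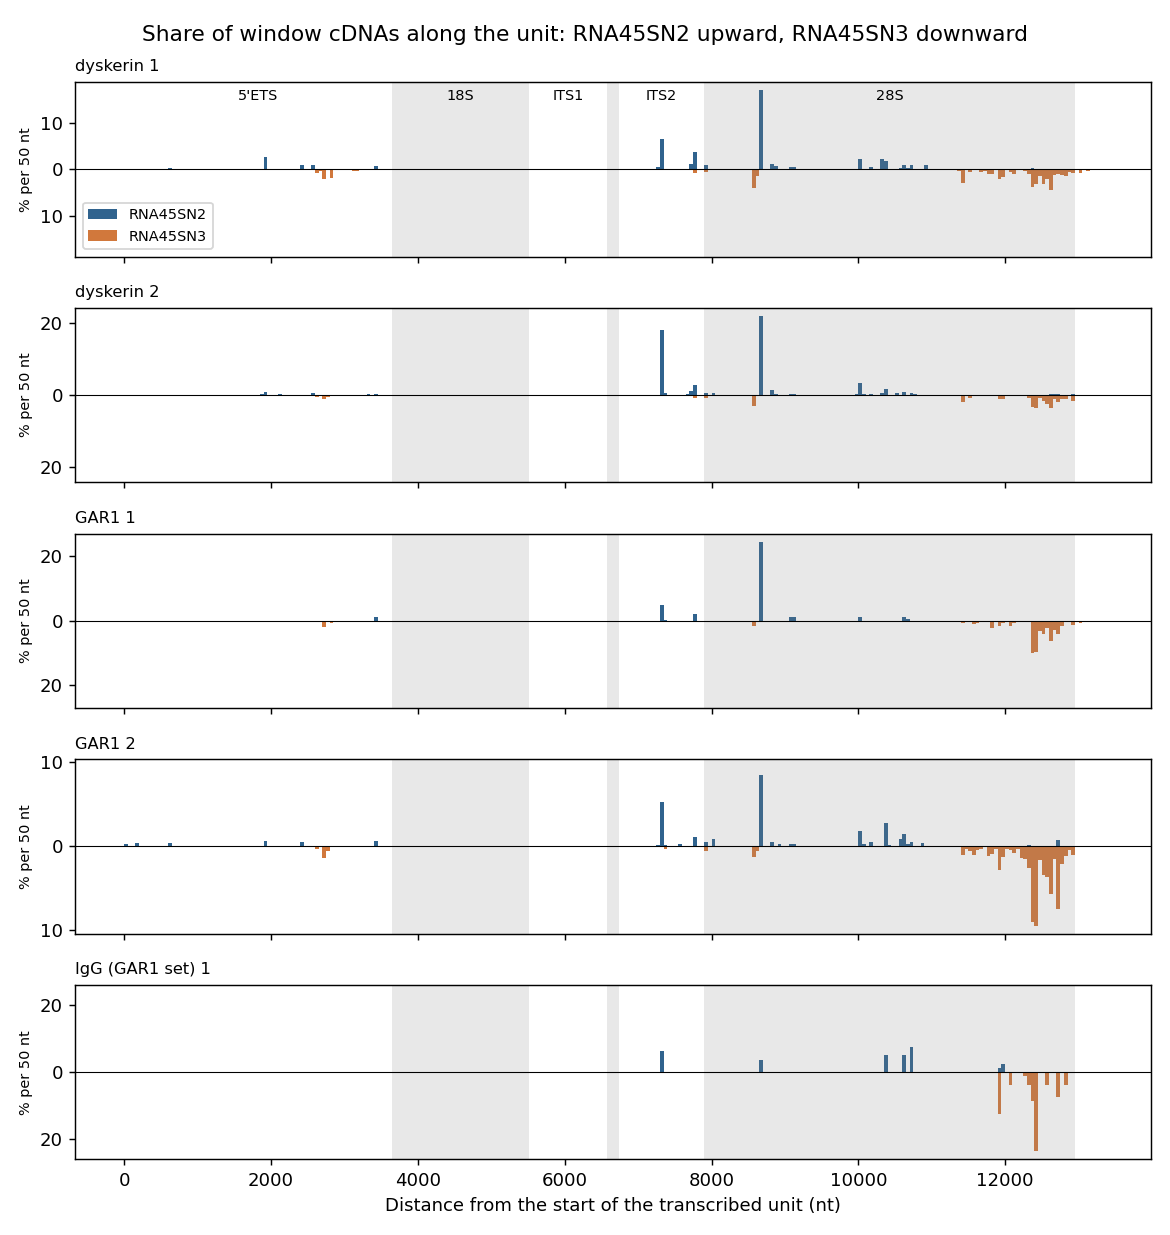
Share of window cDNAs in bins of 50 nt by distance from the start of the transcribed unit, in percent, for the antibody libraries and the IgG library with 80 window cDNAs. Sites of RNA45SN2 point upward, sites of RNA45SN3 downward, and grey marks 18S, 5.8S and 28S; ITS2 and the 5′ part of 28S are drawn by RNA45SN2 and the 3′ end of 28S by RNA45SN3.

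For dyskerin, a larger share of positions was called in both replicates in the window than over the whole library. Of the window's dyskerin positions, 283 were called in both replicates, which is 55.3% of replicate 1 and 46.2% of replicate 2, against 28.6 and 27.9% of all sites of those libraries. These positions held 76.3 and 79.6% of the window cDNAs. For GAR1, 139 positions were called in both replicates, 77.2% of replicate 1 and 23.1% of replicate 2, against 75.8 and 35.2% over the libraries. The dyskerin and GAR1 sets of reproducible positions shared 92, which is 32.5% of the dyskerin set and 66.2% of the GAR1 set. Of 68 positions called in any IgG library, 55 (80.9%) were also called in an antibody library. The positions called with IgG were therefore mostly positions called with the antibodies, and 34 of the 283 dyskerin and 29 of the 139 GAR1 positions were among them. These shares depend on depth and on how many sites passed in each library, and no test was made.

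At the crosslinked nucleotide, uridine took a larger share than in the sequence around it. Of window cDNAs, 24.6 and 27% lay at U for dyskerin and 29.2 and 27.5% for GAR1, where U made up 14.2 to 14.7% of the same segments. In the first IgG library of the GAR1 set the share was 47.5%, above all antibody libraries. G was low, with 21.1 to 24.1% of cDNAs in the antibody libraries against 36.5 to 37.2% of the segments. Counting each site once gave U shares of 21.7 and 22.5% for dyskerin and 25 and 23.7% for GAR1. No antibody library exceeded that IgG library in its U share. Neighbouring sites of a library are not independent, so these values are a description.

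The repeats differed in which part of the unit they held. In RNA45SN2 the 8 libraries together had 219 cDNAs in the 5′ETS, 970 in ITS2, 1984 in 28S and 0 in the 3′ETS, whereas RNA45SN3 had 200, 41, 3162 and 30. In 28S of RNA45SN3 from position 3501 there were 2903 cDNAs, and the aligned bases of RNA45SN2 had 57. In the dyskerin libraries only 9 and 17 aligned positions were called in both units, of 502 and 592 called in either, and in the GAR1 libraries 0 and 6 of 180 and 593. Of these shared positions, 2 and 4 for dyskerin and 0 and 2 for GAR1 had equal counts. For most sites, then, the aligned position of the other unit held no count. The share of window cDNAs in RNA45SN2 was 49.3 and 61.4% for dyskerin and 38.2 and 31.7% for GAR1.

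How many copies of a sequence hg38 holds was counted for the bases just downstream of every position, over the chromosomes and the unplaced and unlocalized scaffolds. The 100 nt downstream occurred exactly once for 7.72% of all positions of RNA45SN2 and RNA45SN3, for 21% of the sites and for 37.6% of their cDNAs. With 30 nt these values were 3.51, 8.30 and 14.2%. Of the 21 segments of the 3 units, 7 held any position with a single-copy stretch of 100 nt, and these were the 7 that held sites. RNA45SN1 and all 18S, ITS1 and 5.8S segments had no such position. At single sites the match was only partial. Sites and cDNAs lay at single-copy stretches more often than positions of the units did. Even so, most cDNAs lay where the next 100 nt occurred several times. The 3′ part of 28S of RNA45SN3 had no single-copy stretch of 100 nt among its 1555 positions, with a median of 7 copies, and yet held 1032 sites. The partial repeat went the other way, with single-copy stretches at 659 positions of RNA18SP5 and no site.

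**Figure D5:**
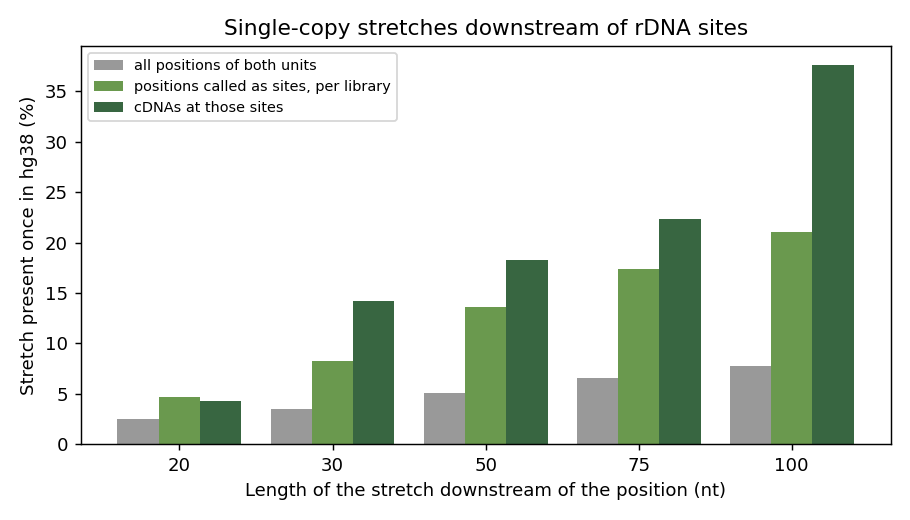
Percent of positions whose downstream stretch occurs exactly once in hg38, by the length of the stretch in nt, for all positions of RNA45SN2 and RNA45SN3 (grey), for sites of all libraries (light green) and for their cDNAs (dark green). At 100 nt the values are 7.72, 21 and 37.6%.

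The leading places show both cases. For the ITS2 place, the first base that differs between the units lies 25 nt downstream of position 610, and for 28S 774 to 788 it lies 9 nt downstream of position 788. The lines below give 30 nt of the plus strand of hg38 around these differences, with the first differing base in capitals. A read that begins at the site and runs past that base can be told apart between these units, though not always from other copies. For the leading positions of 28S 774 to 788, the next 30 nt occurred 7 times in hg38 and the next 100 nt 1 time. For ITS2 608 to 610 both lengths occurred 1 time.
RNA45SN2, downstream of ITS2 610 (chr21:8213347-8213376): gcccctcctccgaggCcccgcccgtcctcc
RNA45SN3, the aligned stretch (chr21:8396380-8396409): gcccctcctccgaggGcccgccctgtcctc
RNA45SN2, downstream of 28S 788 (chr21:8214669-8214698): gtcctcctcctccccCgtctccgccccccg
RNA45SN3, the aligned stretch (chr21:8397706-8397735): gtcctcctcctccccGtctccgccccggcc
At both places the aligned 30 nt of RNA45SN3 held 0 cDNAs. At 28S 3543, 4497 and 4517 no base differed between the units in the next 100 nt, the stretch of 100 nt occurred 7, 5 and 5 times in hg38, and the aligned 30 nt of RNA45SN2 held 0, 5 and 0 cDNAs. How reads with several alignments were placed among copies is not given in the sources used here beyond an upper limit on their number, and its part in the pattern was not tested. An empty segment is therefore a statement about the deposited sites and not about contact with 18S rRNA, 5.8S rRNA or ITS1.

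The list of other RNAs that take part in making ribosomes, or are rRNA themselves, comprised 31 genes, of which 15 passed the filter. It held the processing snoRNAs SNORD3A (U3), SNORD118 (U8), SNORD13, SNORD14A to SNORD14E, SNORD22, SNORA73A and SNORA73B, as well as RMRP, the mitochondrial rRNAs and the 5S rRNA genes. Against IgG, 0 were called for dyskerin and 0 for GAR1 by edgeR and by DESeq2. With TMM scaling the edgeR median log2 fold changes of the list were -0.03 and 4.67, beside 2.04 and 0 over everything tested. The value for GAR1 rested on the scaling. Its median was 0.60 with total peak cDNAs as scaling and 0.40 in DESeq2. In those settings 4 and 5 of 15 were below 0, against 0 with TMM. Between dyskerin and GAR1, all 15 had a fold change below 0 in the TMM fit and 7 of 15 were called by edgeR, all lower in dyskerin, beside 4.47% of everything tested that was called lower. Without replicate 2 of the dyskerin IgG set, edgeR called 0 of 6530 in this comparison (lowest adjusted p = 0.0523), so all 7 calls were lost with a single library. The median of the list was -4.97, beside 5.56 over everything tested, a value set by the genes without GAR1 counts and no measure of contrast. The called genes were SNORA73A at -5.89 ± 1.08 (SE; edgeR adjusted p = 0.000102), SNORA73B at -5.80 ± 1.04, both H/ACA snoRNAs, the C/D snoRNAs SNORD118, SNORD14C, SNORD14E and SNORD22, and RNA5S9, a 5S rRNA gene. These directions rested on the scaling as that of the window did. With total peak cDNAs as scaling, 12 of 15 were below 0 and only SNORA73A and SNORA73B were called, at -2.45 and -2.38. Of everything tested, 6093 of 6531 were called with that scaling, and 174 of these were lower in dyskerin. In DESeq2 the median was 0.85, 2 of 15 were below 0, and only SNORD3A was called, higher in dyskerin at 3.63. DESeq2 called 3395 of 6531, all of them higher in dyskerin.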

How the data were processed

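The iCLIP libraries were analysed from the deposited sites and clusters, which hold counts of cDNAs that the authors had not normalized. According to the study's methods and the submitters' notes, the authors used FastQC 0.11.9, Cutadapt and STAR 2.7.0e on GRCh38, and iCount called sites in each library separately, so that sums cover only what passed that call and are not sequencing depth. Here the 8 libraries had 8183 to 1976518 cDNAs in sites. Sites were placed in RefSeq rRNA units and in GENCODE 44 genes. Sums were tested with edgeR 4.0.16 (R 4.3.3, TMM, all 4 groups in 1 fit with 4 residual degrees of freedom, at least 10 counts in at least 2 libraries, adjusted p under 0.05), with DESeq2 1.42.0 as an alternative, after a test on simulated data. Units were aligned with edlib, and exact copies of 20, 30, 50, 75 and 100 nt were counted. Named positions were the 10 of highest mean share in each protein among those called in both replicates. The members and gene lists were chosen with earlier results of these data known.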

Additional observations from a re-analysis of the deposited data

How the results depend on the processing

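Fold changes of the whole window kept their sign under every alternative run for dyskerin and for GAR1 against IgG. For GAR1 the size did not hold. From 5.26 in the main fit it fell to 0.19 in DESeq2 and 0.41 with a minimum of 50 counts. It was 0.68 with total peak cDNAs as scaling and 0.91 with sites of at least 3 cDNAs. With no filter on low counts it was 5.24, in a single repeat 5.73, and with each site counted once 2.32. Leaving out each library gave log2 fold changes of 3.14 to 5.15 for dyskerin against IgG and 0.64 to 6.05 for GAR1 against IgG. The value of 6.05 came without GAR1 replicate 1. For dyskerin against GAR1 the range was -4.22 to -1.04. Dyskerin against GAR1 changed sign with total peak cDNAs as scaling (0.41), in DESeq2 (2.47) and with sites of at least 3 cDNAs (1.20). It was called with each site counted once (-3.72, edgeR adjusted p = 0.0324), in a fit that called 1777 of 6002, of which 299 were lower. For dyskerin against IgG, sites of at least 3 cDNAs and the fit without replicate 1 of its IgG set left no IgG count. The fold changes fitted there have no IgG count behind them and are left out here, also from the range above.

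Replicate numbers did not pair the samples, with correlations of their deviations between -0.085 and 0.114. With the replicate number as a block, the fold changes were 3.70, 5.09 and -3.29, with 0 segments called. Segments called, 0 in all 3 comparisons, became 1 for dyskerin against IgG with a minimum of 50 counts (5′ETS, where IgG was at 0). In that fit 855 of 3575 genes and segments were called. For GAR1 against IgG the count stayed 0 in every setting that kept both libraries of each group. For dyskerin against GAR1 it was 1 with total peak cDNAs (3′ETS, which passed the filter through dyskerin alone), where 6093 of 6531 were called. With no filter it was 1 (the site upstream of RNA45SN2), beside 486 of 14766. With each site counted once it was 2 (28S and 5′ETS, lower in dyskerin), beside 1782 of 6004, of which 300 were lower. The GENCODE 44 genes gave 0 calls.

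The difference in window share between antibody and IgG libraries lay between 0.0525 and 0.0860 percentage points on leaving out each library. It passed in a single repeat only, RNA45SN3 (0.0391 percentage points, exact permutation p = 0.0286). That repeat was kept because it had the most cDNAs over all libraries. It leaves out 6 of the 9 window cDNAs of replicate 2 of the GAR1 IgG set, whose share overlapped those of the antibody libraries. RNA45SN2 alone was not tested, so nothing is read from this p-value. The difference was 0.367 points with each site counted once (exact permutation p = 0.257). Outside short non-coding RNAs it was 0.405 points (exact permutation p = 0.286). The denominators differ in both. With RNA45SN3 alone, the mean share of 28S was 87.6% for dyskerin and 95.4% for GAR1, and that of ITS2 2.02 and 0.178%. For GAR1, sites of at least 3 cDNAs gave 89.3% in 28S, 7.39% in ITS2 and 3.17% in the 5′ETS, and each site counted once gave 86.0, 6.69 and 6.25%. The U share was 22.1% for dyskerin and 24.3% for GAR1 with each site counted once, 28 and 32% in RNA45SN3, and 32.4% for GAR1 with sites of at least 3 cDNAs. The share of cDNAs at single-copy stretches, on average 44.6% for dyskerin and 28.5% for GAR1 with 100 nt, was 26.5 and 15.4% with 75 nt and 21.4 and 10.9% with 50 nt, lengths chosen after seeing the data. The cause of these differences was not tested.

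The IgG libraries with 8183 and 10701 cDNAs limit every comparison, since 3 counts there are 0.0367 and 0.0280% of a library.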

Other observations

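Outside the window, 550 annotated rRNA genes and rRNA pseudogenes on the chromosomes were searched, of which 18 held sites. Sites on either strand were counted, and rRNA genes on unplaced or unlocalized scaffolds were not searched. The most cDNAs lay at LOC110467533, an 18S rRNA pseudogene on chromosome 2. It had 85 and 87 cDNAs in the dyskerin libraries, 27 and 133 in the GAR1 libraries, 6 and 0 in the dyskerin IgG set and 3 and 0 in the GAR1 IgG set. RNA5S9, a 5S rRNA gene on chromosome 1, had 15 and 5 cDNAs for dyskerin, 10 and 17 for GAR1 and 0 in the IgG libraries. The 18S pseudogene thus held cDNAs in all 4 antibody libraries although no 18S segment of the chromosome 21 units did. Clusters of sites in the window numbered 49 and 53 for dyskerin and 26 and 50 for GAR1, and the longest covered 476 nt, in GAR1 replicate 2.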
